A study of Homo sapiens with 12 samples.

Results

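The measurement described here is the line-dependent effect of TRAIL in MDA-MB-231, a long-established line of human triple-negative breast cancer cells. For each gene the change with TRAIL in treated-to-resistance (TTR) cells was compared with the change with TRAIL in parental cells, and the result is called the difference (TTR change minus parental change, log2). All 12 of the 12 arrays entered the test, and the members are the 18417 genes, out of 33252 array features, that a single-gene feature represented. The series concerns SLC26A2 and resistance to TRAIL. The groups, of 3 arrays each, were: parental cells without treatment, parental cells given TRAIL at 100 ng per ml for 2 hours, TTR cells without treatment, and TTR cells given the same dose for the same time. The labels do not say whether the TTR cells are 1 clone or how long they were selected, nor that replicates came from separate cultures, so p-values cover the spread among the arrays and nothing wider, which may be technical. File descriptions carry a tag that reads minus125 for both parental groups and plus125 for both TTR groups, so its meaning, which the labels do not give, and the line cannot be told apart.

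TRAIL is a death ligand of the tumour necrosis factor family. It binds the death receptors TNFRSF10A and TNFRSF10B, which recruit FADD and caspase-8 into a death-inducing complex that CFLAR restrains. The same receptors can also signal through TRAF and RIP proteins to NF-kB and the MAP kinases, which switch on inflammatory genes and immediate-early transcription factors.

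Parental arrays with TRAIL formed a set of their own against the other 9 arrays, with medians over all features of 4.575 to 4.61 against 4.242 to 4.4 elsewhere, and correlations of 0.921 to 0.963 with other groups against 0.984 to 0.992 among the other groups. These arrays enter every difference below, and the part that this shift plays in the results was not tested beyond the further scalings given here. The median difference over all genes was −0.03 as deposited, 0.15 after centring each array on its median, 0.04 after a further quantile normalization and 0.05 after cyclic loess. All 8 measured markers of a mesenchymal basal-type line lay above the median of all values in each group, with summed levels of 77.2 to 78.2 in TRAIL-treated parental arrays and 81.8 to 85.0 elsewhere. Of 14 luminal markers 7 to 9 lay below that median, as did 9 or 10 of 12 blood markers and 10 or 11 of 12 fibroblast and endothelial markers.

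Among genes whose TRAIL effect depended on the line, nearly all changed by less in TTR than in parental cells. In these bulk samples a smaller change per cell and fewer responding cells cannot be told apart. The difference passed limma's test (adjusted p under 0.05) for 6852 genes, 37.2% of those tested, with 4224 above 0 (22.9%) and 2628 below 0 (14.3%). Tested line by line, 28.9% of genes rose and 29.9% fell with TRAIL in parental cells, against 3.27% and 2.55% in TTR cells. The adjustment was made within each test, so the cut-off on the unadjusted p was stricter in TTR cells. At an unadjusted limma p under 0.05, 5794 genes rose and 5684 fell in parental cells, against 1586 and 2208 in TTR cells. Among genes with a called difference the TTR change lay nearer 0 in 6790 and farther from 0 in 62. Changes did not overlap between the lines, meaning every pair of TTR arrays lay beyond every pair of parental arrays, for 5813 of the called genes and for 33.4% of all genes. Median centring left 6685 calls but split them as 5410 above 0 and 1275 below 0.

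**Figure D1:**
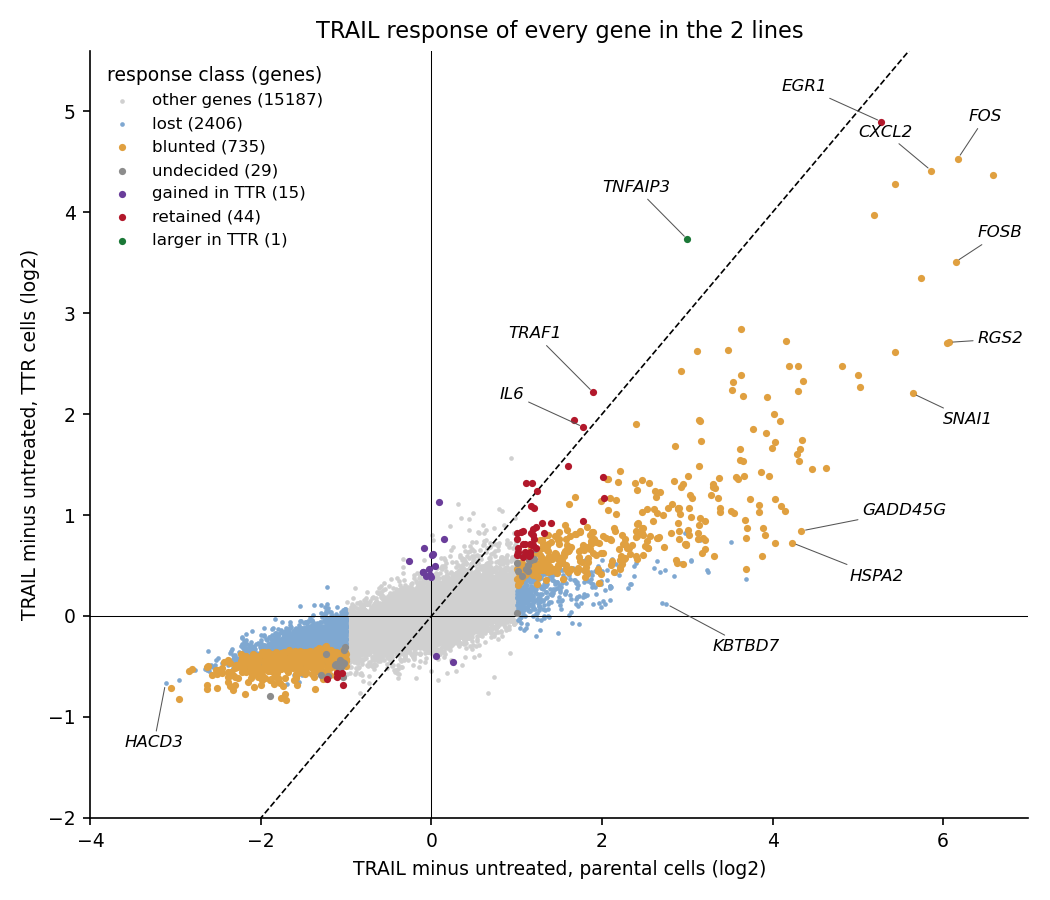
Change with TRAIL in parental cells (x axis, log2) against change in TTR cells (y axis, log2) for 18417 genes, each point the difference of 2 means of 3 arrays, coloured by response class. The dashed line marks equal changes; most genes with a large parental change lie between it and 0, and TNFAIP3, TRAF1 and IL6 lie on or above it.

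To sort the responses, the 3215 genes that changed at least 2-fold with TRAIL in parental cells (17.5% of genes, 776 higher or 4.21% and 2439 lower or 13.2%) were classed by the tests in the TTR line and of the difference. A response was retained if TTR cells changed the same way and the difference was not called, which held for 44 genes (0.239% of all genes, 39 higher and 5 lower). It was blunted if TTR cells changed the same way by less and the difference was called, for 735 genes (3.99%, 343 higher and 392 lower). It was lost if the TTR change was not called and the difference was, for 2406 genes (13.1%, 381 higher and 2025 lower). One gene, TNFAIP3, changed by more in TTR cells (0.00543%), and 29 stayed undecided (0.157%). No gene was reversed by limma, that is, called in opposite directions with at least a 2-fold parental change, and the count was also 0 at an unadjusted p under 0.05 in the TTR line and for the difference. Another 15 genes (0.0814%) were gained, with a called change and difference in TTR cells and none called in parental cells. Because the parental change both chose these genes and enters their difference, the class sizes are a description.

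Lost does not mean at 0. The 95% interval of the TTR change lay wholly below 50% of the parental change for 2095 of the 2406 lost genes and included 0 for 1202. Retained, in turn, does not mean equal. Over the 44 retained genes the TTR change was a median of 66.2% of the parental change on the log2 scale. The quartiles were 57.7% and 79.9% and the lowest share was 51.0%. Blunted and lost together made up 97.7% of the 2-fold genes, and 96.4% to 98.5% under the other scalings, fits and omissions of 1 array. With the replicate number as a block, a pairing that the data bear out within the TTR line, 1023 genes were blunted, 2144 lost, 28 gained and 9 undecided. The boundary between the classes also moved with single TTR arrays. Blunted genes numbered 327 without TTR replicate 2, 403 without TTR replicate 3, and 373, 292 and 450 without TTR TRAIL replicates 1, 2 and 3. Retained genes numbered 82 without TTR replicate 1 and 25 without TTR TRAIL replicate 2. Gained genes numbered 56 without TTR replicate 1, 8 and 7 without TTR replicates 2 and 3, and 5 without TTR TRAIL replicate 2. Undecided genes numbered 73 without TTR replicate 2, 63, 72 and 58 without TTR TRAIL replicates 1, 2 and 3, and 46 without parental replicate 1.

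**Figure D2:**
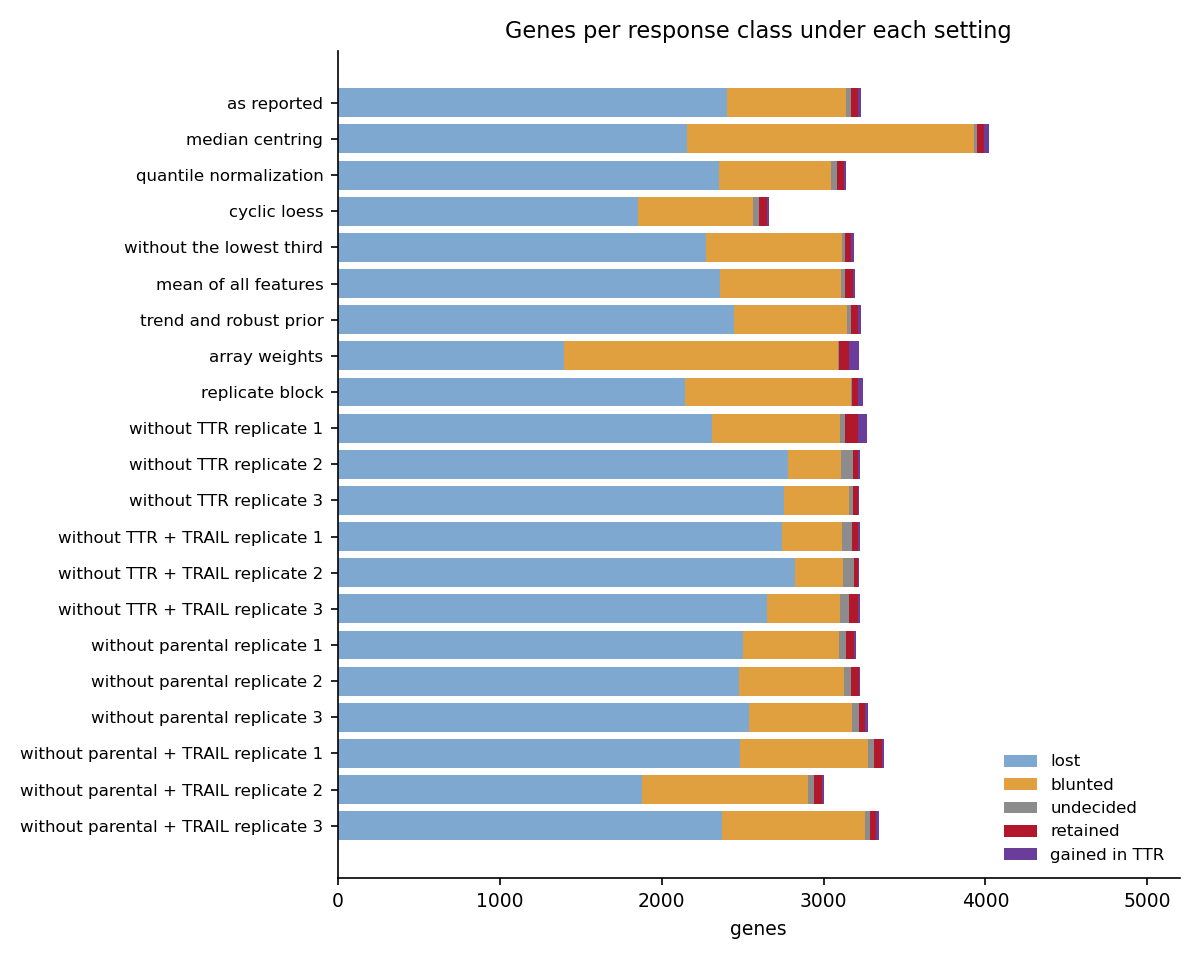
Number of genes in each response class (x axis) as reported and under each other scaling, fit or omission of 1 array (y axis); the class larger in TTR, with 0 to 2 genes, is not drawn. Lost and blunted genes together fill most of every bar, while the boundary between them moves, from 292 blunted genes without TTR TRAIL replicate 2 to 1774 after median centring.

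The share of a parental response that TTR cells kept, taken as the TTR change in percent of the parental change on the log2 scale, differed between rises and falls. Among the 776 rises the median share was 29.1% (quartiles 18.1% and 40.5%), and among the 2439 falls it was 19.6% (quartiles 14.7% and 25.1%). At least 75% was kept by 23 rises and by 0 falls, and at least 50% by 107 rises and 10 falls. In 21 rises and 27 falls the TTR change had the opposite sign. After median centring, quantile normalization and cyclic loess the medians were 29.1%, 24.0% and 27.3% for rises and 22.7%, 21.4% and 23.5% for falls, so the gap between rises and falls was narrower after each of them. Larger rises kept more: the median share was 26.4% for parental rises of 1 to 2 on the log2 scale, 29.4% from 2 to 3, 32.3% from 3 to 4 and 47.2% in the 35 genes at 4 or more.

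**Figure D3:**
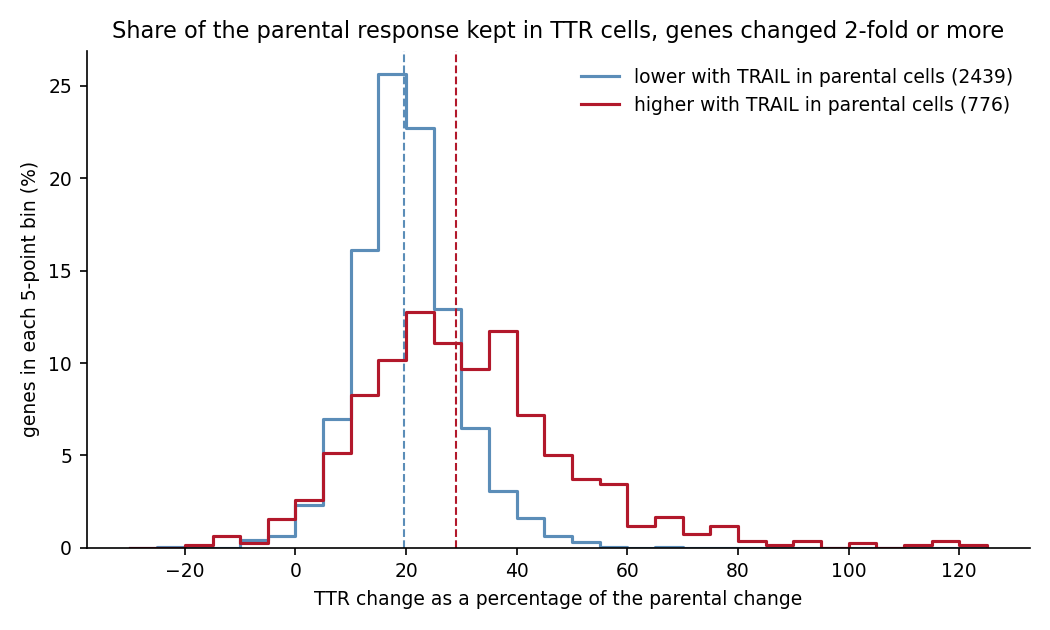
TTR change as a percentage of the parental change (x axis, bins of 5 points) for the 776 genes that rose and the 2439 that fell at least 2-fold in parental cells, as percent of each set (y axis). Dashed lines mark the medians, 29.1% and 19.6%; the tail above 75% holds rises alone, 23 genes.

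The 23 rises that kept at least 75% were EGR1, CXCL1, CXCL2, CXCL8, PTX3, NFKBIA, NFKBIZ, TNFAIP3, BCL3, SOD2, TRAF1, IL6, NUAK2, ICAM1, CD83, BCL2L11, LRP1, TAS2R14, TAS2R45, KLRC4-KLRK1, SNORD13P2, LINC01296 and LOC100131496. This set was defined from the measured shares, so it carries no test, and its size ran from 14 after cyclic loess to 28 without TTR replicate 1, with 9 to 23 genes shared with the reported set. Of the 17 measured NF-kB subunits and feedback inhibitors, 11 rose and 3 fell in parental cells, and 11 rose and 0 fell in TTR cells (12 and 0 at an unadjusted p under 0.05). The difference was below 0 for 6 of them and above 0 for 4, beside 14.3% and 22.9% of all genes. These counts were 3 and 8 after median centring, 7 and 3 after quantile normalization and 6 and 3 after cyclic loess. The 8 members with a 2-fold parental rise kept a median of 69.4%.

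IL6, a cytokine that spreads the inflammatory response, is the clearest of the retained genes. Its values were 4.90, 5.48 and 5.40 in untreated parental arrays and 6.97, 7.0 and 7.17 with TRAIL. In TTR cells they were 6.15, 6.20 and 6.24 untreated and 7.95, 8.24 and 8.01 with TRAIL. Every TRAIL array lay above every untreated array of its line, and untreated TTR arrays already lay above untreated parental arrays. The rise was 3.44-fold in parental cells (1.78 ± 0.13, SE) and 3.66-fold in TTR cells (1.87 ± 0.13). The difference of 0.09 was not called by limma (95% interval −0.31 to 0.49, adjusted p = 0.755, 0.206 to 0.998 over the alternatives), and its sign turned under quantile normalization, cyclic loess and without parental replicate 2.

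ICAM1, the adhesion molecule that holds leukocytes on a cell surface, read 5.89, 6.28 and 6.25 in untreated parental arrays and 8.20, 7.57 and 7.43 with TRAIL. In TTR arrays it read 5.47, 5.47 and 5.69 untreated and 7.31, 6.83 and 6.94 with TRAIL. Groups with and without TRAIL did not overlap in either line, and the rises of 1.60 ± 0.18 and 1.48 ± 0.18 differed by −0.11 (interval −0.64 to 0.42, limma adjusted p = 0.765, 0.244 to 0.979 over the alternatives, with the sign turned by median centring). TRAF1, an adaptor of TNF-family receptors, rose 3.72-fold in parental and 4.64-fold in TTR cells. Its difference of 0.32 (interval −0.02 to 0.66) was not called (adjusted p = 0.138), but it passed after median centring (adjusted p = 0.0206) and cyclic loess (adjusted p = 0.0213), within a range of 0.0206 to 0.349. The stress kinase NUAK2 rose by 1.67 and 1.94, and CD83, a surface protein of activated immune cells, by 1.23 and 1.24. ICAM1, IL6 and NUAK2 stayed in the retained class under all 20 other scalings, fits and omissions, CD83 and LRP1 under 19, and TRAF1, BCL2L11 and NFKBIE under 18. The class as a whole was less stable. Of its 44 genes, 11 stayed retained after median centring, 18 after quantile normalization and 18 after cyclic loess.

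TNFAIP3, the deubiquitinase A20 that switches off NF-kB signalling, was the gene with the larger rise in TTR cells. It read 4.87, 5.32 and 5.21 in untreated parental arrays and 8.59, 7.89 and 7.92 with TRAIL. In TTR cells it read 5.12, 4.75 and 4.60 untreated and 8.65, 8.82 and 8.20 with TRAIL. The TRAIL-treated groups overlapped and the changes of the lines overlapped too. Rises of 7.99-fold and 13.3-fold gave a difference of 0.73 ± 0.28, just called (adjusted p = 0.0488). The call was lost under 10 of 20 alternatives (0.00661 to 0.186 over all of them), among them quantile normalization, cyclic loess and the omission of any of TTR replicates 2 or 3, TTR TRAIL replicates 1 or 2, parental replicates 2 or 3 and parental TRAIL replicates 2 or 3.

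NFKBIA, the inhibitor that holds NF-kB in the cytoplasm and is itself made in response to it, kept 84.2% of its rise. It read 9.19, 9.19 and 9.14 in untreated parental arrays, 12.36, 12.32 and 12.18 with TRAIL, 9.13, 8.68 and 8.90 in untreated TTR arrays and 11.50, 11.62 and 11.44 with TRAIL. TRAIL-treated TTR arrays all lay below TRAIL-treated parental arrays. Its difference of −0.49 ± 0.16 (adjusted p = 0.0208) was no longer called after median centring (0.133), with array weights (0.0699) and without TTR replicate 1 (0.0561) or TTR TRAIL replicate 3 (0.0522), over a range of 1.87e-04 to 0.133. NFKBIZ, an atypical nuclear relative, kept 83.0%, with a difference of −0.50 (adjusted p = 0.0131) that median centring alone took past the threshold (0.113, range 1.90e-04 to 0.113). ZC3H12A, the ribonuclease that degrades inflammatory transcripts, kept 61.2% (difference −1.22 ± 0.14).

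NFKB1, which encodes the p105 precursor of the p50 subunit, went the other way. It read 7.92, 8.08 and 7.79 in untreated parental arrays and 6.64, 6.26 and 6.26 with TRAIL. In TTR arrays it read 7.77, 7.54 and 7.39 untreated and 7.83, 7.60 and 7.56 with TRAIL. The fall of 1.55 on the log2 scale was seen in every parental TRAIL array, whereas treated and untreated TTR arrays overlapped. Its difference of 1.64 ± 0.19 (adjusted p = 5.22e-06) stayed called under every alternative (highest adjusted p 3.94e-05). CYLD, a deubiquitinase that restrains the pathway, stood at −0.80 in parental and 0.09 in TTR cells (difference 0.89 ± 0.15, adjusted p = 1.70e-04). OTUD1, another deubiquitinase, rose by 1.14 in parental cells and was at 0.11 in TTR cells.

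**Figure D4:**
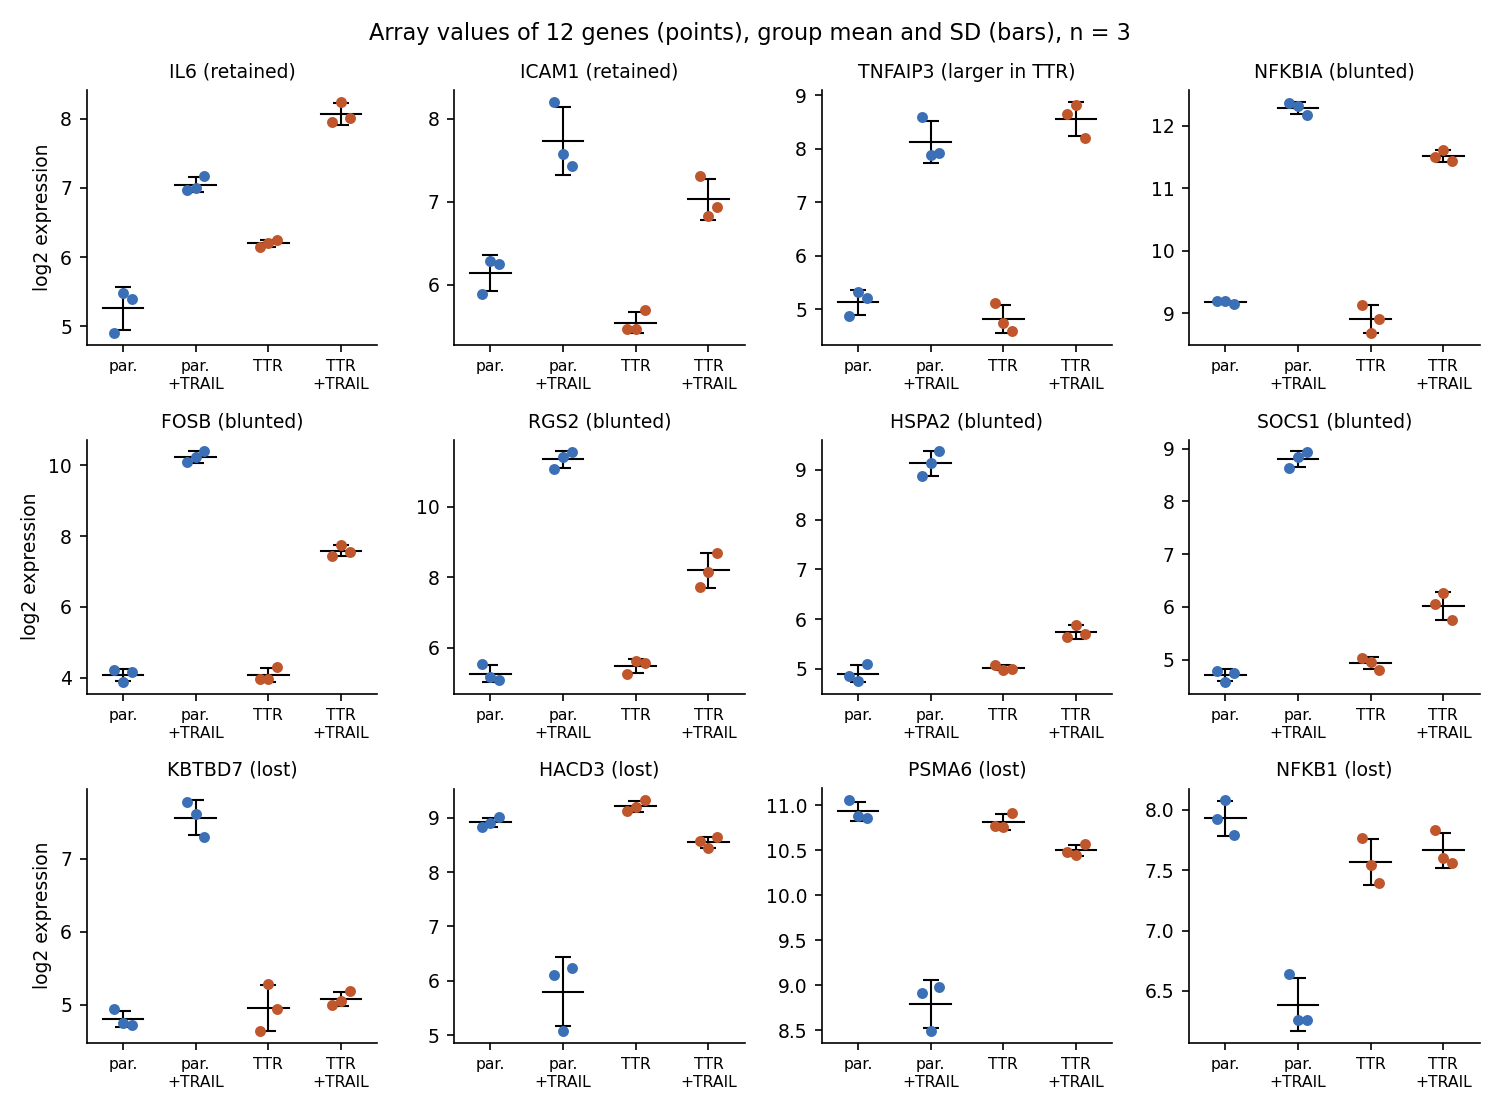
Log2 expression (y axis) of 12 genes in each array (points), with the group mean and SD (bars, n = 3 arrays), in parental (blue) and TTR (orange) cells without and with TRAIL; each panel has its own axis, which does not start at 0. IL6 and ICAM1 rose by similar steps in both lines, FOSB, RGS2, HSPA2 and SOCS1 rose by less in TTR cells, and KBTBD7, HACD3, PSMA6 and NFKB1 moved mainly in parental cells.

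Promoter sequences were set beside these shares as a description of the letters they hold. Of the 23 rises that kept at least 75%, 19 matched a RefSeq promoter window (250 bases before to 50 after the start, GRCh38.p14). An NF-kB site pattern stood in 9 of the 19 (47.4%), against 12.4% of all 14237 windows. By class, it stood in 7 of 27 windows of retained rises (25.9%), 15.9% of blunted rises and 14.6% of lost rises. Split by kept share, it stood in 14% of windows of rises that kept 50% to 75%, 14.1% at 25% to 50% and 15.1% below 25%. TATAAA stood in 31.6% of the 19, in 19.8% of blunted rises and in 9% of all windows, and the CRE letters TGACGTCA in 6.90% of blunted rises against 2.65% of all. Among falls, TATAAA was found in 2.52% of blunted and 4.18% of lost windows. Both strands were searched, matches of different patterns could overlap, and these shares are a description without a test. A match is not evidence of binding.

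The 130 bases before the start are printed for retained and strongly kept genes, for the pair CXCL2 and CXCL3, and for the blunted HSPA2, 5′ to 3′ on the gene's strand, with the NF-kB pattern in capitals (the serum response pattern CArG for EGR1). They are IL6 (chr7:22727070-22727199, plus strand), TNFAIP3 (chr6:137867129-137867258, plus), NFKBIA (chr14:35404750-35404879, minus), CXCL2 (chr4:74099196-74099325, minus), CXCL3 (chr4:74038690-74038819, minus), HSPA2 (chr14:64540611-64540740, plus) and EGR1 (chr5:138465349-138465478, plus).
IL6: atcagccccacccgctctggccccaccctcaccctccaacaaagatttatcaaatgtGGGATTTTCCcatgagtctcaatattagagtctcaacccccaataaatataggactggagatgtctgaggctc
TNFAIP3: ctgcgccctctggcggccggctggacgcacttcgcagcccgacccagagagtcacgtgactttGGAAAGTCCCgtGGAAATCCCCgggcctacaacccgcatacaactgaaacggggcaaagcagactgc
NFKBIA: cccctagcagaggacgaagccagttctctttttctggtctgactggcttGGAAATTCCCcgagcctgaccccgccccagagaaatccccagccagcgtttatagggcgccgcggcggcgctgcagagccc
CXCL2: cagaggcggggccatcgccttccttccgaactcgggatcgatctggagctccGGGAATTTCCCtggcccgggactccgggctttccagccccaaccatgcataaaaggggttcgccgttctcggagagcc
CXCL3: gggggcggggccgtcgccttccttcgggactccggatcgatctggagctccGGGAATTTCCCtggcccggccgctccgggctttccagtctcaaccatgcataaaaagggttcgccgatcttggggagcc
HSPA2: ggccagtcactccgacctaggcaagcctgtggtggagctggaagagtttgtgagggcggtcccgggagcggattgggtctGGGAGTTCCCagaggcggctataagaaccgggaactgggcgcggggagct
EGR1: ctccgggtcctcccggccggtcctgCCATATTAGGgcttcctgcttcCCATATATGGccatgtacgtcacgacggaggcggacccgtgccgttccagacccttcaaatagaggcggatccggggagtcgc
Starting points of the patterns were 73 bases before the start for IL6, 67 and 55 for TNFAIP3, 81 for NFKBIA, 50 for HSPA2, and 105 and 83 for the serum response patterns of EGR1. CXCL2 and CXCL3 carry the same run of capitals, in which overlapping matches begin 78 and 77 bases and 79 and 78 bases before the start. CXCL2 kept 75.3% of its rise (95% interval 68.6% to 82.4%) and CXCL3 38.2% (25.3% to 52.2%). HSPA2, with a match as well, kept 17.1% (10.8% to 23.6%).

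Chemokines, the secreted attractants of leukocytes, split along these lines. Of 12 measured, 8 rose in parental and 6 in TTR cells, beside 28.9% and 3.27% of all genes. The difference was below 0 for 7 and above 0 for 0 (8 and 0 at an unadjusted p under 0.05), beside 14.3% and 22.9% of all genes. The 6 with a 2-fold parental rise kept a median of 56.7%. CXCL1, CXCL2 and CXCL3 are near-identical copies whose probes may share signal, so their separate values are uncertain. CXCL2 read 4.96, 5.05 and 4.84 in untreated parental arrays, 11.02, 10.84 and 10.57 with TRAIL, 5.42, 5.03 and 5.36 in untreated TTR arrays and 9.77, 9.93 and 9.34 with TRAIL. CCL20, which draws lymphocytes and dendritic cells, read 2.60, 3.10 and 3.15, then 7.92, 7.10 and 6.69 in parental cells, and 3.22, 3.50 and 3.17, then 4.71, 5.30 and 4.70 in TTR cells. Both genes were higher with TRAIL in every array of both lines, but TTR cells kept 75.3% of the CXCL2 rise (difference −1.45 ± 0.22, adjusted p = 6.16e-05) and 37.4% of the CCL20 rise (−2.68 ± 0.35, adjusted p = 1.60e-05). CXCL8, the main neutrophil attractant, kept 78.7% (−1.16 ± 0.24) and the interferon-associated CXCL10 35.0% (−1.56 ± 0.24).

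Among 15 cytokines and inflammatory mediators the difference was below 0 for 7 and above 0 for 1, or 2 and 1 after median centring. Over all genes as deposited the shares were 14.3% below and 22.9% above 0. TNFSF9, a ligand that costimulates T cells, rose by 3.04 and 0.98 (difference −2.06 ± 0.16), and PTGS2, the inducible prostaglandin synthase, by 3.77 and 1.85 (−1.92 ± 0.23). PTX3, a secreted pattern-recognition protein, kept 78.4%. Its difference of −0.78 (adjusted p = 0.0226) was lost after median centring (0.0763) and without TTR replicate 1 (0.0559), TTR TRAIL replicate 3 (0.0652) or parental TRAIL replicate 1 (0.0581), over a range of 0.00109 to 0.0763.

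Immediate-early transcription factors rose in both lines and by less in TTR cells. Of the 30 measured, 29 rose in parental and 26 in TTR cells, beside 28.9% and 3.27% of all genes. None fell in either line (0 and 0 at an unadjusted p under 0.05). The difference was below 0 for 22 and above 0 for 0 (23 and 0 unadjusted), beside 14.3% and 22.9% of all genes. The median change was 2.65 in parental and 0.83 in TTR cells, and the median difference of −1.56 compares with −0.03 over all genes. The 23 members with a 2-fold rise kept a median of 36.6%. FOSB, a partner in the AP-1 factor, read 4.22, 3.89 and 4.15, then 10.08, 10.22 and 10.40 with TRAIL in parental cells. The TTR values were 3.96, 3.96 and 4.31, then 7.45, 7.75 and 7.56. The untreated groups overlapped, while the TRAIL-treated groups lay more than 2 log2 units apart. Its rise was 70.8-fold in parental and 11.4-fold in TTR cells (difference −2.64 ± 0.18, adjusted p = 1.12e-07).

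Within this family the kept share ranged widely. SNAI1, the repressor of epithelial genes, kept 39.1% (5.64 and 2.21, difference −3.44 ± 0.23), JUND 40.5%, IER2 49.8%, JUNB 65.7% and FOS 73.4%. ID3, an inhibitor of helix-loop-helix factors, was classed as lost: it rose by 2.64 in parental cells and stood at 0.55 in TTR cells (adjusted p = 0.119 there). EGR1, a zinc-finger factor driven by serum response elements, read 6.46, 6.69 and 6.32, then 11.86, 11.89 and 11.56 in parental cells. TTR arrays read 5.82, 5.90 and 5.92, then 10.77, 10.90 and 10.67. Both TTR groups lay below their parental counterparts, with means of 5.88 against 6.49 untreated and 10.78 against 11.77 with TRAIL. A 38.8-fold rise stood beside one of 29.8-fold, or 92.8% on the log2 scale (95% interval 86.6% to 99.4%). Its difference of −0.38 (interval −0.73 to −0.03) was not called (adjusted p = 0.0847), but it was under cyclic loess (8.62e-04), with the replicate number as a block (0.0441) and without parental replicate 2 (0.0347) or parental TRAIL replicate 3 (0.0244), over a range of 8.62e-04 to 0.409.

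Stress-signal genes showed some of the largest gaps. Of 14 GADD45 and small G-protein stress genes the difference was below 0 for 12 and above 0 for 0 (12 and 0 unadjusted), beside 14.3% and 22.9% of all genes. Their median change was 3.53 in parental and 1.00 in TTR cells, and the 11 with a 2-fold rise kept a median of 36.9%. RGS2, a brake on G-protein signalling, read 5.54, 5.18 and 5.09, then 11.07, 11.40 and 11.53 in parental cells. In TTR cells it read 5.26, 5.64 and 5.57, then 7.73, 8.16 and 8.70. All TRAIL-treated TTR arrays lay above the untreated ones and at least 2 log2 units below TRAIL-treated parental arrays (difference −3.36 ± 0.28, adjusted p = 5.14e-07). GADD45G, a growth-arrest and stress-kinase regulator, rose 20.2-fold in parental and 1.79-fold in TTR cells (difference −3.50 ± 0.25). RASD1 and RRAD, small GTPases of the RAS superfamily, kept 31.7% and 32.6%, and GADD45B 30.9%.

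HSPA2, a chaperone of the HSP70 family, had the lowest difference of all genes as deposited. It read 4.85, 4.76 and 5.09 in untreated parental arrays and 8.88, 9.13 and 9.38 with TRAIL. The values in TTR cells were 5.08, 4.98 and 5.0 untreated and 5.63, 5.89 and 5.70 with TRAIL. Every TRAIL array lay above its untreated controls, yet the rise was 18.8-fold in parental and 1.65-fold in TTR cells (difference −3.51 ± 0.18, adjusted p = 5.79e-09). Of 18 heat shock chaperones measured, the difference was below 0 for 4 and above 0 for 4, beside 14.3% and 22.9% of all genes. The share above 0 was thus close to that over all genes. HSPA4 was at 1.40 and HSPD1 at 1.06, and the sign of the list's median (−0.15 as deposited) turned after median centring. SOCS1, which blocks cytokine receptors, read 4.78, 4.57 and 4.75, then 8.64, 8.84 and 8.93 in parental cells, and 5.03, 4.96 and 4.81, then 6.06, 6.26 and 5.74 in TTR cells. TTR cells kept 26.5% of that rise (difference −3.02 ± 0.18) and 29.4% of the rise of SOCS3, while SOCS5 had a difference of 0.52 (adjusted p = 0.02) that was lost after quantile normalization (0.128), cyclic loess (0.491, the highest) and without TTR replicate 1 (0.0539) or TTR TRAIL replicate 3 (0.0556).

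Feedback regulators of the MAP kinases were divided by the direction of their parental change. The difference was below 0 for 4 of 15 and above 0 for 5, beside 14.3% and 22.9% of all genes. Its median of 0.21 turned to −0.09 under cyclic loess. The phosphatase DUSP1, itself an immediate-early gene, kept 57.7% of a rise of 4.29. SPRED1 and SPRED2, inhibitors of RAF activation, fell by 1.21 and 1.12 in parental cells and were at −0.15 and 0.02 in TTR cells. RNA-decay regulators gave a similar picture, with a median that likewise turned under quantile normalization and cyclic loess: ZFP36, which destabilises AU-rich cytokine messages, kept 53.5% of a rise of 4.35, and ELAVL1, which stabilises them, had a difference of 0.99 ± 0.19. In the CCR4-NOT deadenylase list 10 of 14 members had a difference above 0 and 3 below, beside 22.9% and 14.3% of all genes. TOB1 and BTG1, antiproliferative partners of the complex, rose by less in TTR cells (differences −2.86 and −1.72). Among members above 0 were the catalytic subunits CNOT7 (2.23 ± 0.31), CNOT8 (1.36) and CNOT6L (1.37).

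Several rises were seen in parental cells with no call in TTR cells. KBTBD7, a substrate adaptor of a ubiquitin ligase, read 4.94, 4.76 and 4.73, then 7.77, 7.61 and 7.30 in parental cells. TTR cells gave 4.65, 5.28 and 4.94, then 5.0, 5.05 and 5.19. Treated and untreated TTR arrays overlapped, and the TTR change of 0.12 (adjusted p = 0.724) was 4.31% of the parental change (95% interval −7.0% to 15.7%; difference −2.63 ± 0.21, adjusted p = 3.35e-07). MT1M, a metal-binding metallothionein, read 3.02, 2.96 and 2.89, then 4.85, 5.49 and 6.65 in parental cells and stayed between 2.77 and 3.15 in all 6 TTR arrays. Its parental arrays with TRAIL spread over nearly 2 log2 units, and the difference was −2.57 ± 0.40. Of 10 metallothioneins 6 had a difference below 0 and 0 above (6 and 0 unadjusted), beside 14.3% and 22.9% of all genes. GDF15, a stress cytokine, rose by 2.34 in parental cells and was at 0.31 in TTR cells, and it stayed lost under all 20 alternatives. DLX2, a homeobox factor, rose by 3.23 and was at 0.45 in TTR cells, where its treated arrays (3.95, 4.11 and 4.27) all lay above the untreated ones (3.72, 3.74 and 3.49). It was blunted with the replicate block, with array weights and without parental TRAIL replicate 2.

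Among 16 BCL2-family genes the difference was below 0 for 5 and above 0 for 3, beside 14.3% and 22.9% of all genes. BBC3 and PMAIP1, killer proteins of the BH3-only group, rose by 1.19 and 1.38 in parental cells. In TTR cells BBC3 stood at 0.16 (not called; difference −1.03 ± 0.18, adjusted p = 2.70e-04) and PMAIP1 rose by 0.47 (difference −0.91 ± 0.16). BCL2L11, also BH3-only, was retained, with 1.08 and 0.84 (difference −0.24, interval −0.64 to 0.16, adjusted p = 0.345, 0.0754 to 0.853 over the alternatives). BID, which caspase-8 cleaves to engage mitochondria, fell by 1.36 and 0.54, and its difference of 0.83 (adjusted p = 8.21e-04) was lost under cyclic loess (0.0596, the highest over the alternatives). Of 12 inhibitor-of-apoptosis and effector genes 6 had a difference above 0 and 1 below, beside the same shares of all genes, led by the effector caspase CASP6 (1.55 ± 0.21).

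The receptors and their complex showed small differences. Of 11 measured genes of 14 listed, the difference was above 0 for 3 and below 0 for 0 (5 and 0 unadjusted), beside 22.9% and 14.3% of all genes, so the share above 0 was close to that over all genes, with a median of 0.40 that stayed above 0 under each scaling (0.58, 0.14 and 0.10). CFLAR, the caspase-8 inhibitor, read 5.48, 5.66 and 5.62, then 5.08, 5.15 and 5.12 in parental cells. In TTR cells it read 5.87, 5.85 and 5.81, then 5.86, 5.88 and 5.84. All treated parental arrays lay below all others and the TTR groups overlapped (difference 0.49 ± 0.12, adjusted p = 0.0048, up to 0.0331). The decoy receptor TNFRSF11B had a difference of 0.68 ± 0.19 (adjusted p = 0.00925). TNFRSF10A, a death receptor, read 6.67, 6.55 and 6.70, then 6.07, 6.04 and 6.34 in parental cells, and 5.27, 4.98 and 5.26, then 5.30, 5.06 and 5.06 in TTR cells. TTR arrays were lower than parental arrays with or without TRAIL, and the difference of 0.46 (adjusted p = 0.0339) was lost after quantile normalization (0.15), without TTR replicate 2, TTR TRAIL replicate 1, parental replicates 1 or 3 or parental TRAIL replicates 1 or 2 (up to 0.0969), over a range of 0.00338 to 0.15. TNFRSF10B, the other death receptor, was at 0.43 (interval 0.05 to 0.81) and was not called (adjusted p = 0.0735, 0.0125 to 0.905 over the alternatives). It was called with the replicate number as a block (0.0213), with array weights (0.0371), after median centring (0.0125) and without TTR replicate 1 (0.0348), TTR TRAIL replicate 3 (0.0331) or parental TRAIL replicate 2 (0.0373). FADD stood at 0.27 and CASP8 at 0.03, not called.

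SLC26A2, the sulfate transporter of the series title, read 6.15, 6.66 and 6.14, then 4.80, 5.36 and 5.19 in parental cells. For TTR cells they were 6.72, 6.64 and 6.72, then 6.12, 6.28 and 6.49. Treated arrays lay below untreated arrays in both lines, by 1.20 in parental cells and by a change of −0.40 in TTR cells that was not called (adjusted p = 0.152). That fall was called after median centring and with array weights, which moved the gene from lost to blunted. The difference was 0.81 ± 0.22 (interval 0.34 to 1.27, adjusted p = 0.0084, up to 0.0255), and the TTR change was 32.9% of the parental one (5.42% to 65.8%). Of 14 SLC26 transporters and genes of activated sulfate supply, 6 had a difference above 0 and 2 below, beside 22.9% and 14.3% of all genes. The list's median of −0.04 turned above 0 under each further scaling. PAPSS2 and PAPSS1, which make the activated sulfate donor, and its Golgi carrier SLC35B2 were at 1.70 ± 0.25, 1.07 ± 0.19 and 1.11 ± 0.14, and PAPSS1 was blunted in place of lost with the replicate block.

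**Figure D5:**
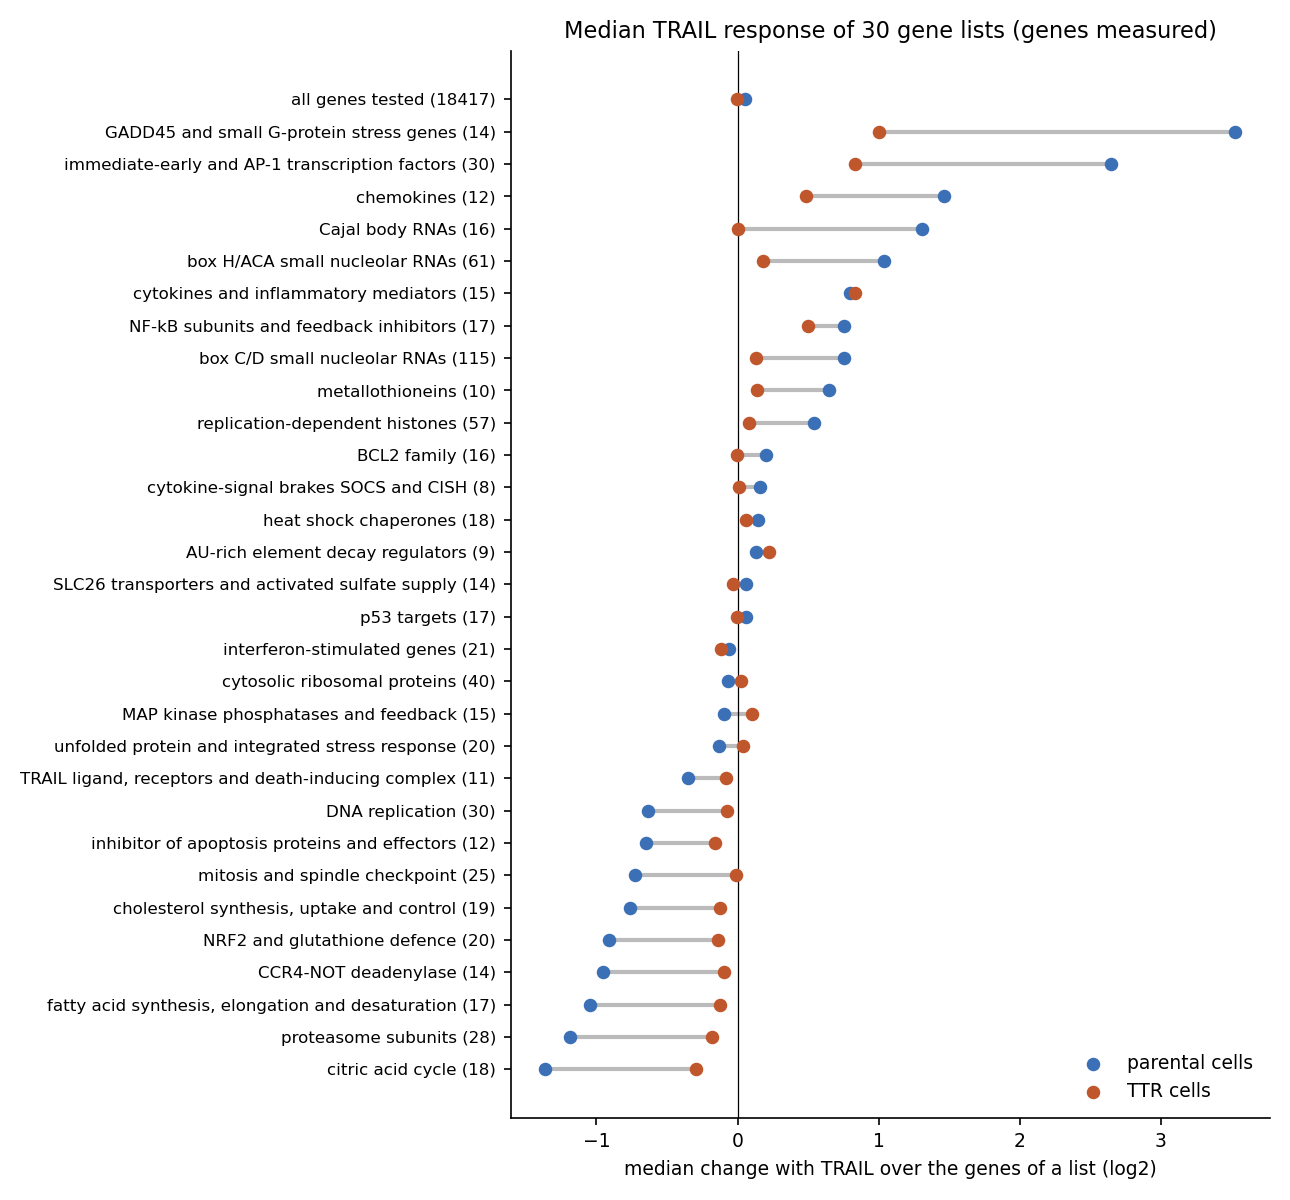
Median change with TRAIL (x axis, log2) over the measured genes of 30 gene lists and over all genes (y axis, number of genes in brackets), in parental (blue) and TTR (orange) cells. The lists with the largest parental medians, at 3.53 for GADD45 and small G-protein genes and −1.36 for the citric acid cycle, lie nearer 0 in TTR cells, at 1.00 and −0.29.

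Many genes of metabolism and protein turnover fell by less in TTR cells, some with a called change there and some without. HACD3, a dehydratase of fatty acid elongation, had the highest difference of all genes as deposited. It read 8.84, 8.91 and 9.01, then 6.10, 5.07 and 6.23 in parental cells, and 9.13, 9.20 and 9.33, then 8.58, 8.44 and 8.64 in TTR cells. The TTR arrays with TRAIL all lay below the untreated ones, but the change of −0.67 was not called (adjusted p = 0.0721) against −3.12 in parental cells (difference 2.45 ± 0.29, adjusted p = 8.81e-06). It was classed as blunted after median centring, with array weights, with the block, and without parental TRAIL replicate 2 or 3. Of 17 genes of fatty acid synthesis, elongation and desaturation 12 had a difference above 0 and 2 below, beside 22.9% and 14.3% of all genes. Under cyclic loess these counts were 10 and 3. ELOVL5 (lost) was at 1.58 and ELOVL7 (blunted) at 1.53. Cholesterol genes had 13 of 19 above 0 and 1 below, with MSMO1 and SC5D, late enzymes of the pathway, at 2.15 and 1.79. The list's counts were 13 and 0 after median centring, 10 and 3 after quantile normalization and 6 and 3 under cyclic loess. SC5D was blunted, and MSMO1 was lost but blunted under the same 5 alternatives as HACD3.

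Citric acid cycle genes fell in parental cells, 18 of 18, and 3 of them fell in TTR cells (10 at an unadjusted p under 0.05). Over all genes 29.9% fell in parental and 2.55% in TTR cells. IDH3A, a subunit of isocitrate dehydrogenase, read 10.41, 10.48 and 10.62, then 7.85, 7.32 and 7.80 in parental cells. The TTR arrays gave 10.28, 10.45 and 10.46, then 9.93, 9.81 and 9.82. Groups with and without TRAIL did not overlap in either line, and TTR cells kept 19.0% of the fall (difference 2.31 ± 0.18, adjusted p = 2.86e-07). In this list 16 differences lay above 0 and 0 below (17 and 0 unadjusted), beside 22.9% and 14.3% of all genes. Under the further scalings 17, 13 and 10 lay above 0. The median difference was 1.19. Succinate dehydrogenase subunit SDHC (blunted) was at 1.90 and dihydrolipoamide dehydrogenase DLD (lost) at 1.79.

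Proteasome subunits fell in parental cells alone by this test. There 27 of 28 fell, and 0 in TTR cells (27 and 10 unadjusted), beside 29.9% and 2.55% of all genes. Of the differences 25 lay above 0 and 0 below (26 and 0 unadjusted), beside 22.9% and 14.3% of all genes. Under the further scalings 27, 23 and 17 lay above 0. PSMA6, of the outer core ring, read 11.06, 10.88 and 10.86, then 8.92, 8.49 and 8.98 in parental cells. In TTR cells it read 10.77, 10.76 and 10.92, then 10.48, 10.45 and 10.57. Its TTR change was −0.32 (adjusted p = 0.142), 14.8% of the parental change, and the difference was 1.82 ± 0.17 (adjusted p = 1.30e-06). The TTR fall was called, making the gene blunted, after median centring, with array weights and without parental TRAIL replicate 2. The NRF2 and glutathione list had 12 of 20 differences above 0 and 1 below, beside 22.9% and 14.3% of all genes. These counts were 14 and 1 after median centring, 11 and 1 after quantile normalization and 8 and 2 under cyclic loess. In this list PGD of the pentose phosphate pathway was at 1.40, GCLC of glutathione synthesis at 1.32 and NFE2L2, which encodes NRF2 itself, at 1.29.

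Cell-cycle genes fell mainly in parental cells. Of 25 genes of mitosis and the spindle checkpoint 21 fell and 4 rose in parental cells, while 0 fell and 1 rose in TTR cells (1 and 2 unadjusted). Over all genes 29.9% fell and 28.9% rose in parental cells, and 2.55% fell and 3.27% rose in TTR cells. The difference was above 0 for 19 and below 0 for 0 of the 25 (20 and 0 unadjusted), beside 22.9% and 14.3% of all genes. These counts were 20 and 0 after median centring, 16 and 1 after quantile normalization and 10 and 3 under cyclic loess. BUB1, a checkpoint kinase, read 9.32, 9.22 and 9.25, then 8.48, 8.15 and 8.39 in parental cells, and 9.43, 9.62 and 9.37, then 9.38, 9.58 and 9.45 in TTR cells. The TTR groups overlapped fully, and the difference was 0.92 ± 0.15 (adjusted p = 1.52e-04). Among 30 DNA replication genes the difference was above 0 for 17 and below 0 for 4, beside 22.9% and 14.3% of all genes. These counts were 20 and 2 after median centring, 13 and 4 after quantile normalization and 9 and 6 under cyclic loess. RRM1, which supplies deoxynucleotides, was at 1.67 and the helicase subunit MCM6 at 1.53, while the sliding clamp PCNA, which rose by 1.01 in parental cells, was at −0.96.

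Small noncoding RNAs and histones, multigene families whose copies may share probes and whose values are therefore uncertain, differed in a single direction. Over all genes the difference was below 0 for 14.3% and above 0 for 22.9%. Of 61 box H/ACA small nucleolar RNAs, guides of pseudouridylation, 47 had a difference below 0 and 0 above (48 and 0 unadjusted; 1 above after median centring), with a median change of 1.04 in parental and 0.18 in TTR cells. Box C/D small nucleolar RNAs, guides of methylation, had 59 of 115 below 0 and 0 above (61 and 0 unadjusted; 1 above after median centring). Cajal body RNAs, which modify spliceosomal RNAs, had 13 of 16 below 0 and 0 above (14 and 0 unadjusted), and the 13 with a 2-fold parental rise kept a median of 4.83%, under that of the other lists of rises given here. Replication-dependent histones had 29 of 57 below 0 and 0 above (35 and 0 unadjusted; 2 above after median centring).

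Cytosolic ribosomal proteins, p53 targets, unfolded protein response genes and interferon-stimulated genes had no settled direction. Their differences were below and above 0 for 6 and 9 of 40, 5 and 5 of 17, 7 and 7 of 20, and 4 and 2 of 21. Over all genes the shares were 14.3% below and 22.9% above 0, and those of the ribosomal proteins were close to these. Each list's median changed sign under at least 1 further scaling. The ribosomal proteins moved most, to 21 below and 2 above under cyclic loess. Single members still stood out: PLK3, a stress kinase, kept 59.8% of a rise of 3.65, PDIA6, an endoplasmic reticulum chaperone, had a difference of 1.86, and IRF7, a regulator of interferon genes, one of −1.80.

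Gained responses were few and small. IRAK2, a kinase of the interleukin-1 and Toll receptor pathway, read 6.12, 6.32 and 6.18, then 5.98, 5.85 and 5.99 in parental cells, and 6.05, 5.69 and 5.72, then 6.57, 6.22 and 6.30 in TTR cells. TTR arrays rose with TRAIL (0.55 ± 0.12, adjusted p = 0.0126) while parental arrays stood at −0.27, and the difference of 0.81 ± 0.17 (adjusted p = 0.00104) was called under every alternative, up to 0.00417. Its gained class held under 14 of 20 alternatives, since the change of 1 line crossed the threshold in the others. TIFA, an adaptor that activates NF-kB through TRAF6, read 6.17, 6.32 and 6.24, then 6.69, 6.21 and 6.28 in parental cells, and 6.33, 6.34 and 6.41, then 7.18, 7.0 and 7.17 in TTR cells. It rose in TTR cells (0.76 ± 0.12), where treated and untreated arrays did not overlap, and its difference was 0.61 ± 0.16 (adjusted p = 0.0079, up to 0.0432). TNIP1, a partner of TNFAIP3, had a difference of 0.45 (adjusted p = 0.0147) that was lost after quantile normalization (0.171) and cyclic loess (0.246, the highest). SESN3, a sestrin of the stress response, was 1 of the 2 gained genes that fell in TTR cells (0.25 and −0.46, difference −0.71).

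The classes meet at the threshold rather than at a gap. Just inside the retained class, TCOF1 (1.15 and 0.60), PFKFB3 (1.08 and 0.72) and PHGDH (−1.23 and −0.63) had adjusted p-values for the difference of 0.0522, 0.0572 and 0.0613; TCOF1 and PHGDH were blunted with the replicate block. Just outside it, among blunted genes, were PCF11 (1.34 and 0.80, 0.0492), PLXNB2 (1.23 and 0.63, 0.0435) and SOD2 (2.40 and 1.91, 0.0379).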

How the data were processed

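RNA of 12 MDA-MB-231 samples was profiled on one-colour Affymetrix arrays. Trizol was used to extract the total RNA that was turned into biotin-labelled cRNA, per the labels' protocols. Deposited are log2 expression values that the authors made with RMA in Affymetrix Power Tools, per the submitters' processing notes. The sources used here give no version. RMA puts each value on a scale relative to its own array, so changes in total RNA are not seen, and no detection call was used, so low values may be background. The number of arrays limits the precision.

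Of the 33252 features, 19460 named 1 gene, 1754 several and 12038 none. For the 769 genes with several features the highest-mean feature was kept, giving 18417 genes. The platform annotation gave the names, of which 19429 features matched RefSeq (GRCh38.p14) and 0 symbols changed. Groups came from the sample labels. All arrays were fitted in limma 3.58.1 (R 4.3.3, lmFit and eBayes, 4 group means, no block, 8 residual and 7.87 prior degrees of freedom). Contrasts were two-sided and Benjamini-Hochberg adjusted over all genes. In simulated data on 18417 genes the fit recovered 83 of 100 differences of 1 log2 unit and 100 of 100 of 2, with 6 false calls. The simulation drew independent normal noise around untreated parental means and shifted only these genes, in TTR TRAIL arrays alone. Far more genes were called in the data, so it checks the fit and does not give the error rate of the reported calls. Intervals of kept shares are Fieller intervals. An exact permutation of 3 against 3 arrays cannot go below p = 0.1, so none was used.

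The members, response classes and 30 gene lists were chosen with earlier results of these data known, and lists are given as counts without a test. Genes named singly follow a rule: the 10 largest differences on either side of 0 with changes that do not overlap, the 10 largest parental changes in the retained, blunted and lost classes, the leading gained genes, up to 4 called members of each list with the smallest p, and SLC26A2 and the receptor list. The near-threshold genes, the 3 genes called in opposite directions, the genes that kept at least 75%, and BCL2L11, JUNB, LRP1, NFKBIA and NFKBIZ, where outside this rule, were chosen after their values were seen. Alternatives were median centring, quantile normalization and cyclic loess, omission of low-expressed genes, averaging a gene's features, a trended robust prior, array weights, the replicate number as a block, each array left out in turn, parental limits of 1.5-fold and 4-fold, and an adjusted p under 0.01. The deviations of same-numbered TTR and TTR TRAIL arrays from their group means correlated at 0.32, 0.15 and 0.40, all over 0.1, so within the TTR line the data, though not the labels, bear out a pairing. For replicate 3 the untreated parental array also correlated at 0.37 with the TTR array and at 0.26 with the TTR TRAIL array. For that number the link is thus not confined to the TTR line. Between the parental groups the deviations correlated at 0.11, 0.06 and 0.06, and over all 18 same-numbered pairs 8 exceeded 0.1 (range −0.06 to 0.40), so the numbers do not pair all 4 groups. Plots were made in Python 3.11.15 with matplotlib 3.10.9.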

Additional observations from a re-analysis of the deposited data

Results flagged for a closer look

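The TRAIL effect differed between the lines by a direct test for 6852 genes. In 102 of these 6852 called genes the changes lay on opposite sides of 0 in every pair of arrays. Of these, 3 were called in opposite directions in the separate tests of the lines. ETS1, a transcription factor of the ETS family, read 8.75, 8.83 and 8.64, then 8.40, 8.39 and 8.42 with TRAIL in parental cells, and 9.03, 8.86 and 8.67, then 9.37, 9.35 and 9.30 in TTR cells. It fell by 0.34 and rose by 0.49, a difference of 0.82 (adjusted p = 2.20e-04, up to 0.0459 over the alternatives). LOC442028 and the olfactory receptor pseudogene OR52K3P, had differences of −0.84 and −1.43, with rises in parental cells and falls in TTR cells.

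Features outside the genes tested also carried the effect. Of the 13792 features naming several genes or none, 3281 (23.8%) passed the same test, 1089 above 0 and 2192 below.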

How the results depend on the processing

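The count of line-dependent genes stayed within 1.5 times the reported 6852 under every scaling and fit tried, from 4795 at an adjusted p under 0.01 to 7276 with the replicate number as a block, and 6008 to 6912 with 1 array left out (3883 to 4246 above 0, 2125 to 2718 below). Below 0 it was 1275 after median centring and 1434 at an adjusted p under 0.01. The classes moved more. Median centring gave 1774 blunted, 30 gained and 2 larger in TTR. Quantile normalization gave 0 larger in TTR. Array weights gave 1692 blunted, 1398 lost, 6 undecided and 62 gained. With the replicate block 9 were undecided and 28 gained, and 1023 were blunted. Genes named in the text whose call of the difference changed with the block include EGR1, TNFRSF10B, TCOF1 and PHGDH. Omitting low-expressed genes left 16 undecided. A 1.5-fold limit gave 163 retained, 4793 lost, 597 undecided and 1 reversed. A 4-fold limit gave 3 retained, 276 blunted, 168 lost and 0 undecided. An adjusted p under 0.01 gave 268 blunted, 178 undecided, 3 gained and 0 larger in TTR. With 1 array left out the ranges were 25 to 82 retained, 292 to 1023 blunted, 1880 to 2826 lost, 0 to 0 reversed, 0 to 1 larger in TTR, 25 to 73 undecided and 5 to 56 gained. The changes of count with the fold and p limits follow from those limits; for the others the cause was not tested. Of 160 genes named by rule, 134 never changed their call. Over 3353 comparisons of a gene with an alternative, 3260 kept the call, 66 lost it, 27 gained it and 0 reversed. Many of the 160 genes were named for a large difference or a small p, which favours a stable call. These counts therefore do not measure how stable the calls of other genes are. The arrays give no detection call, so low genes rest on signal that may be background.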
